A study of Mus musculus with 12 samples.

Results

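The genes described here carry the beta-adrenergic signal from the receptor to protein kinase A (PKA) in the heart. They were Adrb1, Grk5, Gnas, Adcy5, Adcy6, Adcy7, Adcy9, Prkaca and Prkar1a, found by their symbols among the rows of the expression table. All 9 of them had a row among the 13552 genes of the table, and all 9 were among the 11240 genes tested. The set had been put together knowing that Adrb1, Adcy9, Adcy7 and Grk5 had lower values after TAC in KI than in WT hearts. It was thus chosen by the RPKM of KI TAC against WT TAC hearts, and the difference between those groups is given below as values without a test.

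RNA was sequenced from 12 mouse hearts in 4 groups of 3 hearts each. All mice are labelled C57BL/6, and the study's methods name C57BL/6J for purchased wild-type mice and as the KI background. WT sham and WT TAC hearts were from wild-type mice, and KI sham and KI TAC hearts were from mice labelled Bcl-xL S14A KI mutant. In KI mice serine at position 14 of Bcl-xL, an anti-apoptotic protein encoded by Bcl2l1, is replaced by alanine in every tissue, and the selection cassette of the targeted allele had been removed with a CMV-driven Cre. The labels do not give the zygosity of the KI mice, and the study used heterozygous and homozygous KI mice in its first experiments and states homozygous ones for the later part, in which the sequencing is described. In TAC, transverse aortic constriction, a ligature around the aortic arch raises the load on the left ventricle, whereas sham animals underwent surgery without constriction. The study's methods describe surgery on male mice of 8 to 10 weeks, and hearts were taken 9 h after it. The part of the heart used is not given in the sources used here.

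Catecholamines bind the β1-adrenergic receptor of the cardiomyocyte, the stimulatory G protein then activates adenylyl cyclase, and cyclic AMP (cAMP) releases the catalytic subunits of PKA from their regulatory subunits. PKA phosphorylates calcium channels, phospholamban and troponin I, and so raises the force and the rate of the heartbeat. G protein-coupled receptor kinases and arrestins switch the receptor off, phosphodiesterases degrade cAMP, and anchoring proteins hold PKA close to its substrates. Sustained load on the heart is known for a loss of β1-adrenergic receptors and for a raised level of receptor kinases.

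The table gave RPKM, which scales reads by exon length and by the reads on genes of the library. Levels can thus be set side by side between genes and between hearts, with limits. The values fit the merged length of all annotated exons of a gene, which is 11186 bases for Gnas. A gene whose main transcript is shorter than that has its level understated beside other genes. The reads on genes recovered from the values numbered from 23650267 to 32455232 per heart. RPKM carries no further scaling between hearts. Median-ratio size factors, used in an alternative analysis, were 0.8163, 0.9205 and 1.0372 in KI TAC and 1.0505, 0.9645 and 1.1609 in WT TAC hearts. In sham hearts they ran from 0.9925 to 1.0764. The members were covered by between 650 and 20563 reads per heart. All 5 cardiomyocyte markers (Myh6, Tnnt2, Actc1, Myl2 and Tnni3k) were present in every heart, at a summed level of 12240 to 22360 RPKM. Actc1 alone ranged from 8113 to 19140 RPKM. In tissue RNA, fewer cells of a type and less RNA per cell cannot be told apart. Bcl2l1 transcript does not check the genotype, since the knock-in changes a codon and leaves the gene in place. It was at 12.2 ± 4.52 RPKM (SD, n = 3) in WT sham, 10.4 ± 5.89 in WT TAC, 13.9 ± 6.47 in KI sham and 32.4 ± 6.89 in KI TAC hearts.

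Promoter sequences are shown for Adrb1, Grk5 and Adcy9, those of the 4 genes that chose the set that have 1 annotated RefSeq start each, because the cAMP response element is the binding sequence of the PKA target CREB. The element is the palindrome TGACGTCA, and its core TGACG was searched on both strands (also as CGTCA) in the 250 bases before each start; every palindrome holds 2 overlapping cores. Capitals mark the core, and each sequence runs 5′ to 3′ on the strand of its gene, from RefSeq on GRCm38.p6. The windows are chr19:56721867-56722116 on the plus strand for Adrb1, chr16:4420499-4420748 on the minus strand for Adcy9 and chr19:60889499-60889748 on the plus strand for Grk5, and none of the 3 overlaps an exon annotated in GENCODE M21.
Adrb1: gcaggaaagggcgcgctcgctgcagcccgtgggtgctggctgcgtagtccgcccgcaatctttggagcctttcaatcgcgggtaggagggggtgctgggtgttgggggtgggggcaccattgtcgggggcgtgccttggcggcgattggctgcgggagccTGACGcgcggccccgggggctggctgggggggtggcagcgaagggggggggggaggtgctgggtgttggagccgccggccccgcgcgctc
Adcy9: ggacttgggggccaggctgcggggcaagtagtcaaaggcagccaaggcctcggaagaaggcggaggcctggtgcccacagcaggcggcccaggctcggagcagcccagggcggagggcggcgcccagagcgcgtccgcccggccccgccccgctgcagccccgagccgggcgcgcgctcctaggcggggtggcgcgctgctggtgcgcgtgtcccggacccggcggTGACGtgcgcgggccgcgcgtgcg
Grk5: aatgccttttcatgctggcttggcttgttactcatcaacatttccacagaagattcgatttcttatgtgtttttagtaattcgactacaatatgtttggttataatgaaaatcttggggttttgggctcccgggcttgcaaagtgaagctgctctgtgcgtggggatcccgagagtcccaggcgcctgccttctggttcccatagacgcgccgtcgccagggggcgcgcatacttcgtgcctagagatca
The core began at position -90 before the Adrb1 start and at -24 before the Adcy9 start, and the Grk5 window held none. The single window of Adcy5, which is not shown, held none either. By comparison, the core stood in 17.8% of the 32851 windows in the RefSeq table and the palindrome in 1.55% of them. Of the 9 members, 8 had at least 1 window (Adcy6 had none in the table), with 19 windows in all. The core stood in 10 of these 19 windows, from 6 genes. A pair of windows of Gnas overlap and hold the same core, and so do a pair of windows of Prkar1a, so these windows are not independent. The palindrome stood in 1 of the 19 windows, which belonged to Prkar1a, with the 28 bases at chr11:109650890-109650917 on the plus strand shown here.
Prkar1a: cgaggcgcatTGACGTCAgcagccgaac
A match is a description of the letters in the window, and binding was not measured.

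Receptor and receptor kinase. Adrb1 encodes the β1-adrenergic receptor, the main beta-adrenergic receptor of cardiomyocytes (chr19:56722199-56733113, plus strand, ENSMUSG00000035283). Its level was 21.3, 23.4 and 19.0 RPKM in the WT sham hearts of mice 1, 2 and 3, and 47.0, 41.5 and 25.6 RPKM in the WT TAC hearts of mice 7, 9 and 10. In KI hearts it was 31.0, 19.6 and 17.4 RPKM after sham surgery (mice 1, 2 and 3) and 15.2, 12.3 and 16.7 RPKM after TAC (mice 5, 6 and 7). Every WT TAC heart was above every WT sham heart, whereas every KI TAC heart was below every KI sham heart and below every WT heart. On the log2(RPKM + 1) scale, the TAC minus sham difference was 0.77 ± 0.25 (SE) in WT (limma adjusted p = 0.0608) and -0.56 ± 0.25 in KI hearts (adjusted p = 0.123), so neither passed the threshold of 0.05. With a heart left out the WT difference ran from 0.60 to 1.03 and passed the test only without WT TAC mouse 10 (1.03, adjusted p = 0.0143). The KI difference ran from -0.71 to -0.32, the smallest being without KI sham mouse 1 (adjusted p = 0.404).

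Grk5 encodes G protein-coupled receptor kinase 5, which phosphorylates activated beta-adrenergic receptors (chr19:60889749-61095968, plus strand, ENSMUSG00000003228). WT sham hearts gave 5.93, 6.11 and 5.12 RPKM and WT TAC hearts 13.1, 16.7 and 12.4 RPKM. KI sham hearts gave 6.86, 3.94 and 4.89 RPKM and KI TAC hearts 6.10, 4.31 and 5.27 RPKM. The WT TAC hearts stood apart from all 9 others, and KI TAC and KI sham hearts overlapped. Grk5 rose in WT hearts by 1.16 ± 0.19 on the log2 scale (SE, adjusted p = 0.00263), a 2.46-fold ratio of the mean RPKM, and this call held in all 12 alternative analyses of the same comparison that used a threshold of 0.05 (adjusted p 0.00262 to 0.0159). In KI hearts the difference was 0.02 ± 0.19 (adjusted p = 0.959). TAC hearts entered the comparison that chose Grk5, so its WT call and the repeats are not independent of that choice. Zfp950, a gene on the opposite strand that overlaps the Grk5 locus, was at 0.255 to 0.967 RPKM.

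**Figure D1:**
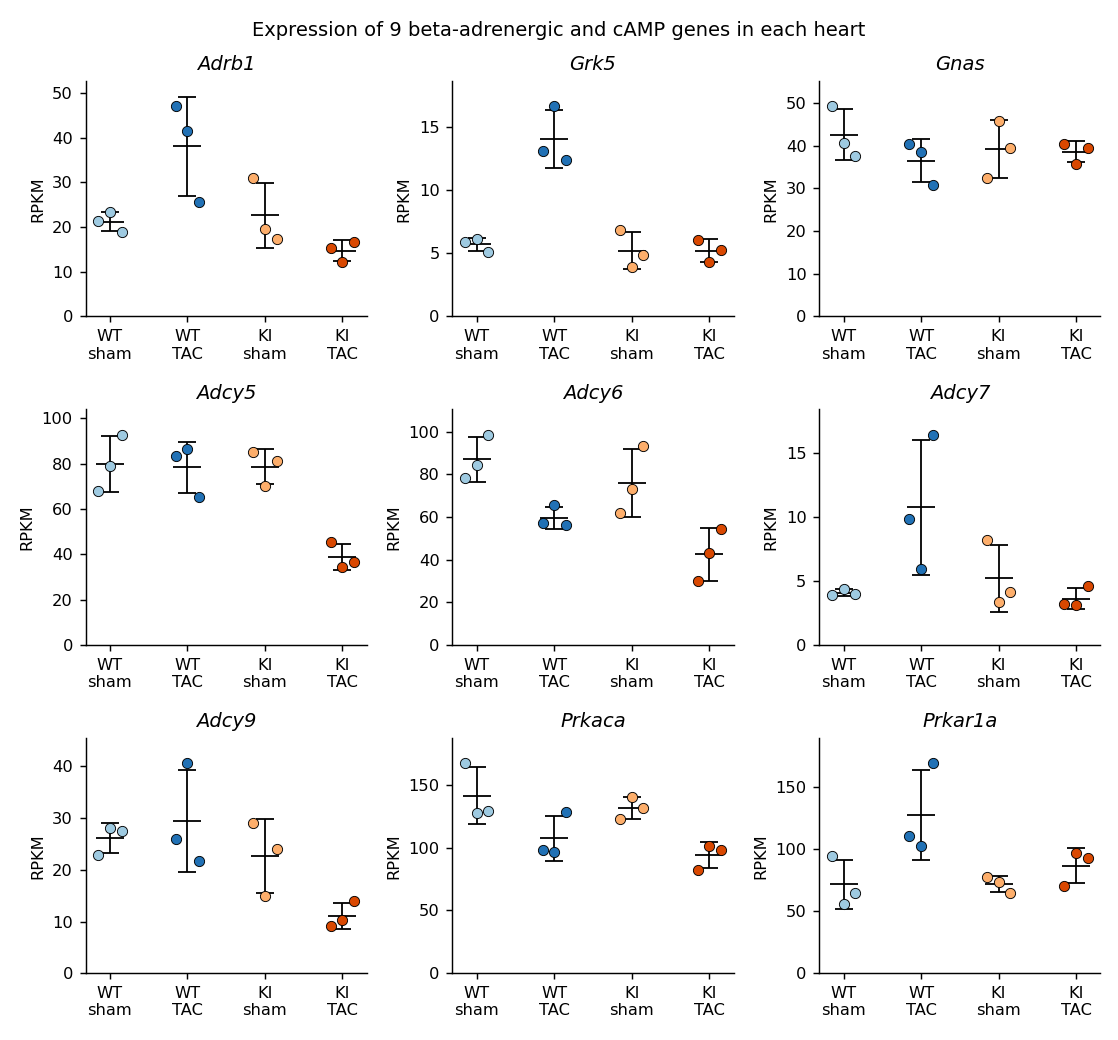
RPKM (y axis, linear and from 0) of each of the 9 genes in the 3 hearts of each group (points), with the mean (bar) and SD (error bar). Adrb1, Grk5, Adcy7 and Adcy9 were lower in every KI TAC heart than in every WT TAC heart, the pattern by which they were chosen, while Gnas overlapped in all groups.

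G protein. Gnas encodes the stimulatory G protein alpha subunit, which couples the receptor to adenylyl cyclase (chr2:174284320-174346744, plus strand, ENSMUSG00000027523). It was at 49.2, 40.7 and 37.7 RPKM in WT sham, 40.3, 38.5 and 30.7 in WT TAC, 32.4, 45.9 and 39.5 in KI sham and 40.4, 35.8 and 39.5 RPKM in KI TAC hearts. The 4 groups overlapped. Its TAC minus sham difference was -0.22 ± 0.19 on the log2 scale in WT (SE, adjusted p = 0.48) and -0.01 ± 0.19 in KI hearts (adjusted p = 0.965). The sign in KI hearts depended on the scaling, being 0.15 after median-ratio scaling. With a heart left out the WT difference ran from -0.296 to -0.099. The locus has several transcripts from separate starts and an antisense transcript, and the gene row does not tell those transcripts apart.

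Adenylyl cyclases. Adenylyl cyclases make cAMP, and Adcy5 and Adcy6 are the main isoforms of the cardiomyocyte. Adcy5 (chr16:35154877-35305738, plus strand, ENSMUSG00000022840) was at 67.9, 78.8 and 92.7 RPKM in WT sham and 83.2, 86.5 and 65.2 RPKM in WT TAC hearts. It was at 85.0, 70.0 and 81.1 RPKM in KI sham and 45.4, 34.3 and 36.5 RPKM in KI TAC hearts. The 3 KI TAC hearts were below all 9 others, which overlapped. Adcy5 fell in KI hearts by 1.01 ± 0.19 on the log2 scale (SE, adjusted p = 0.00259), to 0.492 of the KI sham mean, and the call held in the 12 alternative analyses (adjusted p 0.00224 to 0.0196). In WT hearts the difference was -0.03 ± 0.19 (adjusted p = 0.947), with a sign that turned under quantile normalization (0.02).

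Adcy6 (chr15:98589973-98610076, minus strand, ENSMUSG00000022994) was at 78.2, 84.5 and 98.6 RPKM in WT sham and 57.3, 65.7 and 56.3 RPKM in WT TAC hearts. Its level was 61.8, 73.0 and 93.4 RPKM in KI sham and 29.97, 43.1 and 54.6 RPKM in KI TAC hearts. TAC hearts were below sham hearts without overlap in both genotypes. The fall passed the test in KI hearts, by 0.84 ± 0.23 on the log2 scale (SE, adjusted p = 0.0175), while the WT difference of -0.53 ± 0.23 did not (adjusted p = 0.146). The KI call was lost without KI sham mouse 3 (adjusted p = 0.0923) or KI TAC mouse 5 (adjusted p = 0.0729).

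Adcy9 encodes a widely expressed cyclase that responds poorly to forskolin (chr16:4287529-4420498, minus strand, ENSMUSG00000005580). Its level was 22.9, 28.1 and 27.6 RPKM in WT sham and 25.97, 40.6 and 21.7 RPKM in WT TAC hearts. KI sham hearts gave 29.0, 15.0 and 23.9 RPKM and KI TAC hearts 9.16, 10.2 and 13.9 RPKM. Every KI TAC heart was below all 9 others, the nearest being KI sham mouse 2. Adcy9 fell in KI hearts by 0.94 ± 0.26 on the log2 scale (SE, adjusted p = 0.0215), and the WT difference was 0.12 ± 0.26 (adjusted p = 0.806). The KI TAC hearts entered the comparison that chose Adcy9, so its call is not independent of that choice. The KI call was lost after median-ratio scaling (adjusted p = 0.0602) and without KI sham mouse 1 (0.083), KI sham mouse 3 (0.0807), KI TAC mouse 5 (0.077) or KI TAC mouse 6 (0.0639, all adjusted p).

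Adcy7, a cyclase known from leukocytes, had the lowest mean of the members in both sham groups, with hearts that overlapped Grk5 in KI sham (chr8:88272403-88329962, plus strand, ENSMUSG00000031659). WT sham hearts gave 3.87, 4.38 and 3.999 RPKM and WT TAC hearts 9.85, 5.96 and 16.4 RPKM. KI sham hearts gave 8.20, 3.33 and 4.12 RPKM and KI TAC hearts 3.19, 3.09 and 4.597 RPKM. WT TAC hearts were above WT sham hearts without overlap but spread widely, and KI sham mouse 1 stood above the other KI hearts. Adcy7 rose in WT hearts by 1.11 ± 0.31 on the log2 scale (SE, adjusted p = 0.0336), and the KI difference was -0.36 ± 0.31 (adjusted p = 0.424), or -0.040 without KI sham mouse 1. The WT call was lost without WT sham mouse 1 (0.0881), 2 (0.0779) or 3 (0.0895), or WT TAC mouse 7 (0.092) or 10 (0.0925, all adjusted p), and without mouse 10 the log2 difference was 0.78. The summed level of leukocyte markers (Ptprc, Cd68, Csf1r, Adgre1 and Lyz2) was also highest in WT TAC hearts. It was 65.4 to 111 RPKM in WT sham and 132 to 193 RPKM in WT TAC hearts. In KI hearts it was 71.0 to 96.1 RPKM after sham surgery and 76.6 to 103 RPKM after TAC. Within groups the match was partial. WT sham mouse 1 had the highest sham sum (111 RPKM) but the lowest WT sham Adcy7. KI sham mouse 1 was the highest of its group in both. Of the 4 of these markers that were tested, 3 rose in WT TAC against WT sham (Cd68, Adgre1 and Lyz2) and 2 were lower after TAC in KI than in WT hearts (Csf1r and Adgre1). The summed level of 5 fibroblast markers was also highest in WT TAC mouse 10, at 549 RPKM, where Adcy7 was highest, and lay between 85.3 and 251 RPKM in the other hearts. Col1a1 alone gave 461 RPKM of that sum, and the limma adjusted p of the 5 fibroblast markers in WT TAC against WT sham hearts ran from 0.0661 (Pdgfra) to 0.993 (Dcn), above the threshold. The part of these cells in the Adcy7 difference was not tested. The WT TAC hearts entered the comparison that chose Adcy7, so its call is not independent of that choice.

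**Figure D2:**
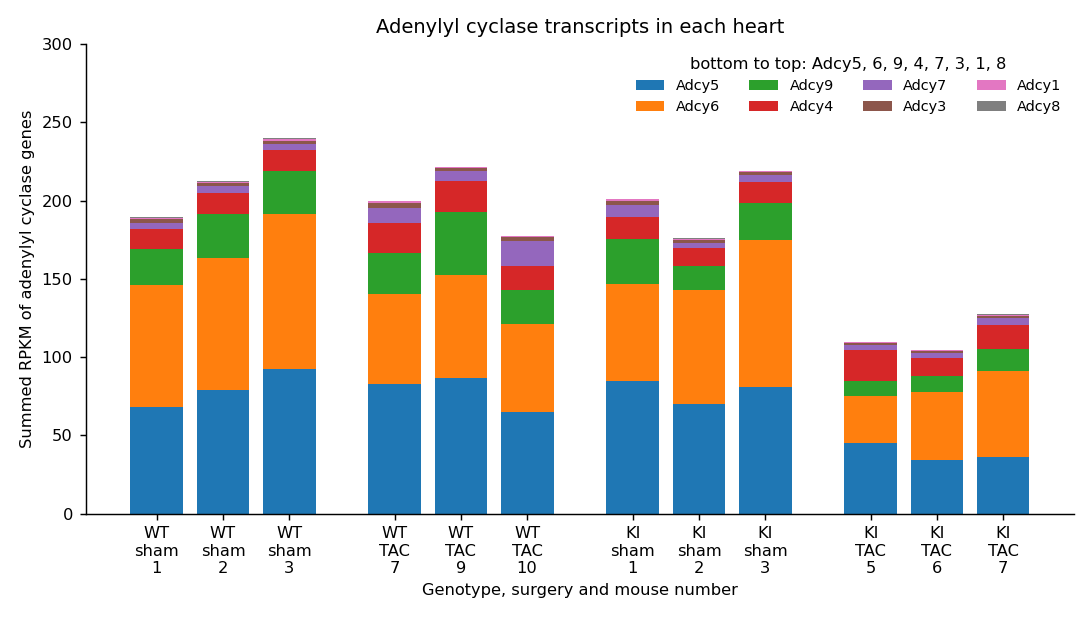
Summed RPKM (y axis, linear and from 0) of the 8 adenylyl cyclase genes with a row, stacked by gene, with 1 bar per heart and hearts ordered by group. The 3 KI TAC bars reach 104 to 127 RPKM and the 9 others 176 to 240 RPKM.

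Taken over the 8 adenylyl cyclase genes with a row, summed cyclase RPKM was 214 ± 25.2 (SD, n = 3) in WT sham, 199.6 ± 21.9 in WT TAC, 199 ± 21.8 in KI sham and 114 ± 11.9 in KI TAC hearts. The KI TAC sums, from 104 to 127 RPKM, did not overlap with the other groups, of which the lowest heart had 176 RPKM. Adcy5 and Adcy6 made up most of the sum in every group. Adcy5 held 37.2% ± 1.43 of it in WT sham, 39.1% ± 2.44 in WT TAC, 39.7% ± 2.62 in KI sham and 34.3% ± 6.399 in KI TAC hearts, which overlapped. The Adcy6 share was 28.7% to 31.7% in WT TAC against 39.7% to 41.2% in WT sham hearts, without overlap, and 27.2% to 42.9% in KI TAC against 30.7% to 42.6% in KI sham hearts, with overlap. The Adcy4 share, singled out after its values were seen, was 11.5% to 18.3% in KI TAC hearts and 5.55% to 9.61% in the others. Adcy4 itself did not pass the test, with a log2 difference of 0.25 ± 0.19 (SE) in KI TAC against KI sham (adjusted p = 0.366) and of -0.19 ± 0.19 in KI TAC against WT TAC hearts (adjusted p = 0.519).

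Protein kinase A. Prkaca encodes the main catalytic subunit of PKA (chr8:83972993-83996443, plus strand, ENSMUSG00000005469) and had the highest level of the members in sham hearts. It was at 167, 127 and 129 RPKM in WT sham, 98.0, 96.4 and 128 in WT TAC, 122, 141 and 131 in KI sham and 81.9, 101 and 98.3 RPKM in KI TAC hearts. KI TAC hearts were below KI sham hearts without overlap, and WT TAC mouse 10 reached into the WT sham range. The TAC minus sham difference was -0.39 ± 0.19 on the log2 scale in WT (SE, adjusted p = 0.202) and -0.49 ± 0.19 in KI hearts (adjusted p = 0.0817), and neither passed the test. After median-ratio scaling the KI difference was -0.32 (limma adjusted p = 0.159).

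Prkar1a encodes the type I alpha regulatory subunit, which binds and silences the catalytic subunit until cAMP is bound (chr11:109649405-109669656, plus strand, ENSMUSG00000020612). Its level was 94.3, 56.3 and 64.6 RPKM in WT sham, 111, 103 and 169 in WT TAC, 77.7, 73.2 and 65.0 in KI sham and 70.7, 96.6 and 93.2 RPKM in KI TAC hearts. WT TAC hearts were above all 9 others. Prkar1a rose in WT hearts by 0.82 ± 0.24 on the log2 scale (SE, adjusted p = 0.0423), and the KI difference was 0.26 ± 0.24 (adjusted p = 0.469). The WT call was lost in the fit of WT hearts alone (adjusted p = 0.0793) and without WT sham mouse 2 (0.158) or 3 (0.13), or WT TAC mouse 7 (0.0812) or 10 (0.114, all adjusted p). The ratio of Prkar1a to Prkaca RPKM within a heart was 0.442 to 0.564 in WT sham, 1.06 to 1.32 in WT TAC, 0.495 to 0.636 in KI sham and 0.863 to 0.954 in KI TAC hearts. These 4 ranges put both TAC groups above both sham groups, and WT TAC above KI TAC, without overlap.

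**Figure D3:**
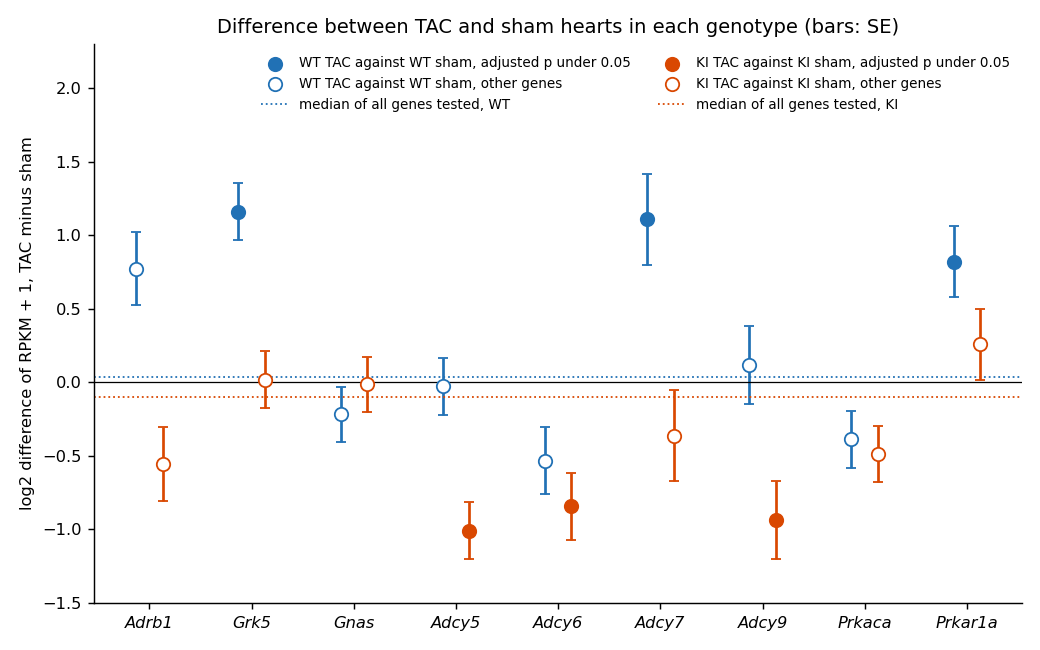
TAC minus sham difference of log2(RPKM + 1) (y axis) of the 9 genes in WT and KI hearts, with SE bars from limma and dotted lines at the median of all genes tested. Filled points passed an adjusted p of 0.05: Grk5, Adcy7 and Prkar1a rose in WT hearts, and Adcy5, Adcy6 and Adcy9 fell in KI hearts.

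Counting over the members, 3 of 9 rose and 0 fell in WT TAC against WT sham hearts, where 11.6% of all genes tested passed, 6.96% as higher and 4.60% as lower. In KI TAC against KI sham hearts 0 rose and 3 fell, where 23.3% of all genes tested passed, 8.57% as higher and 14.7% as lower. The median log2 difference over the members was 0.12 in WT, beside 0.04 over all genes tested, and -0.48 in KI, beside -0.10 over all genes. The TAC hearts also entered the comparison by which the members were chosen, so these counts are not independent of the choice. The sham hearts did not enter it.

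To ask whether the knock-in changed these genes without constriction, KI sham were compared with WT sham hearts. None of the 9 members passed the test in limma (0 of 9, 0 of 9 at an unadjusted p under 0.05, and 0 of 9 with limma-voom on recovered reads), where 2 of 11240 genes did (0.0178%) and 37 of 11240 had an unadjusted p under 0.05. A count of 0 is near those shares and is not a result about the members. The log2 differences ran from -0.24 ± 0.26 (Adcy9) to 0.21 ± 0.31 (Adcy7), and every member overlapped between the groups. With 3 hearts a side, the SE of 0.19 to 0.31 left differences of that size undetectable.

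KI TAC were then set beside WT TAC hearts, which is the comparison that chose the members and is therefore described without a test. The log2 difference was -1.28 ± 0.25 (SE) for Adrb1, -1.28 ± 0.19 for Grk5, -1.26 ± 0.31 for Adcy7 and -1.30 ± 0.26 for Adcy9, with mean RPKM at 0.388, 0.371, 0.337 and 0.378 of the WT TAC mean. These genes reached that difference from different sides. Grk5 and Adcy7 overlapped with sham hearts of their own genotype in KI TAC and lay above them in WT TAC hearts. Adcy9 overlapped with sham hearts in WT TAC and lay below them in KI TAC hearts. Adrb1 lay above the sham hearts of its own genotype in WT TAC and below them in KI TAC hearts. Adcy5 differed by -0.996 ± 0.19, Adcy6 by -0.52 ± 0.23 and Prkar1a by -0.53 ± 0.24, all without overlap of the hearts. The share of all genes without overlap was not counted, so separation of hearts is a description here and in the other comparisons. With a heart left out, Adcy6 ran from -0.71 (without KI TAC mouse 7) to -0.29 (without KI TAC mouse 5), and Prkar1a from -0.67 (without WT TAC mouse 9) to -0.31 (without WT TAC mouse 10). Gnas (0.09 ± 0.19) and Prkaca (-0.19 ± 0.19) overlapped, and the sign of Prkaca turned after median-ratio scaling (0.01). The median over the members was -0.996, beside -0.12 over all genes tested. Median-ratio scaling moved the median of all genes to 0.03 and that of the members to -0.80, with Adrb1, Grk5, Adcy7 and Adcy9 between -1.12 and -1.09.

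The difference between the TAC effects of the genotypes (KI minus WT, on the log2 scale) contains the same comparison and is also given without a test. It was -1.47 ± 0.44 (SE) for Adcy7, -1.33 ± 0.35 for Adrb1, -1.14 ± 0.27 for Grk5, -1.06 ± 0.37 for Adcy9 and -0.98 ± 0.27 for Adcy5. The value was -0.56 ± 0.34 for Prkar1a, -0.31 ± 0.32 for Adcy6, -0.10 ± 0.27 for Prkaca, whose sign turned after median-ratio scaling (0.11), and 0.20 ± 0.26 for Gnas. With a heart left out, the value for Adcy6 ran from -0.51 (without KI TAC mouse 7) to -0.085 (without KI TAC mouse 5), that for Prkar1a from -0.78 (without WT sham mouse 1) to -0.34 (without WT TAC mouse 10) and that for Gnas from 0.075 (without KI sham mouse 1) to 0.32 (without KI sham mouse 2). Median-ratio scaling gave -0.105 for Adcy6, -0.36 for Prkar1a and 0.41 for Gnas.

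Levels per length were then put in order, where the place of Gnas rests on its merged exon length. In WT sham hearts Prkaca (141 RPKM on average) was followed by Adcy6 (87.1), Adcy5 (79.8) and Prkar1a (71.7), which overlapped in turn, then Gnas (42.5), Adcy9 (26.2) and Adrb1 (21.2), the last pair overlapping, then Grk5 (5.72) and Adcy7 (4.09). In WT TAC hearts Prkar1a (128) and Prkaca (108) overlapped at the top, and Adrb1 (38.0) overlapped with Gnas (36.5), which in turn overlapped with Adcy9 (29.4). In KI TAC hearts Adcy6 (42.6), Adcy5 (38.7) and Gnas (38.6) formed an overlapping group, clear of Prkaca (93.8) and Prkar1a (86.8) above and of Adrb1 (14.8) and Adcy9 (11.1) below. Grk5 and Adcy7 were the lowest pair in every group. Within a heart, Grk5 RPKM was 0.261 to 0.279 of Adrb1 RPKM in WT sham, 0.279 to 0.486 in WT TAC, 0.201 to 0.281 in KI sham and 0.315 to 0.400 in KI TAC hearts. This ratio was not a planned result either.

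The genes nearest in pattern were found for the members that chose the set by the root mean square difference of log2(RPKM + 1) over the 12 hearts, after each gene was centred on its own mean. For Adrb1, whose own root mean square spread was 0.53, they were P3h2 (0.18), B4galt6 (0.18) and Rhobtb3 (0.19). For Grk5, with a spread of 0.57, they were Chsy1 (0.19), Fat1 (0.20) and Slc2a10 (0.21). Fat1 RPKM averaged 5.35 in WT sham, 14.5 in WT TAC, 5.16 in KI sham and 4.93 in KI TAC hearts. Adcy7 (spread 0.62) was nearest to Fbln2 (0.23), Adamts2 (0.23) and Adgre1 (0.26), of which Fbln2 and Adamts2 encode proteins of the extracellular matrix or its processing and Adgre1 the macrophage antigen F4/80. Adcy9 (spread 0.59) was nearest to Sh3rf2 (0.21), Prdm16 (0.23) and Foxj2 (0.23). Among the members themselves Adrb1 ranked 39th in nearness to Grk5 (0.32) and Adcy5 ranked 35th in nearness to Adcy9 (0.30). The hearts share their libraries and groups in all these distances, so they describe likeness only.

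The other genes of the pathway came from a list of 67, of which 62 had a row and 54 were tested, while Adrb3, Gnal, Adcy2, Adcy10 and Pkib were not analysed here. In WT TAC against WT sham hearts 3 of 54 rose and 2 fell (9.26%, near the 11.6% of all genes). Rrad, an inhibitor of the L-type calcium channel, rose by 1.28 ± 0.30 on the log2 scale (SE, adjusted p = 0.0149), Pde4b, a cAMP phosphodiesterase, by 1.02 ± 0.25 (adjusted p = 0.0191) and Gnai3, an inhibitory G protein alpha subunit, by 0.70 ± 0.18 (adjusted p = 0.025). Pde4c fell by 1.13 ± 0.19 (adjusted p = 0.00271) and Akap7, a PKA anchoring protein, by 0.52 ± 0.15 (adjusted p = 0.0362). Pde4c passed whichever heart was left out, whereas Rrad lost its call in 3 alternatives (adjusted p up to 0.0716), Pde4b in 4 (up to 0.0675), Gnai3 in 4 (up to 0.0982) and Akap7 in 6 (up to 0.143). Leaving out WT TAC mouse 7 or WT sham mouse 3 gave a count of 1 in place of 5, and leaving out WT sham mouse 2 left a count of 3.

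In KI TAC against KI sham hearts 5 of the 54 rose and 11 fell (29.6% in all, beside 23.3% of all genes). Rrad, Pde4b and Gnai3 rose here too, by 0.98 ± 0.30 (adjusted p = 0.0312), 1.15 ± 0.25 (0.00577) and 0.56 ± 0.18 (0.0402). The Rrad call was lost when mouse 1 (0.0916) or 3 (0.0968) of the KI sham hearts was left out, or mouse 5 (0.0899) or 6 (0.106) of the KI TAC hearts (all adjusted p). The Gnai3 call was lost in the fit of KI hearts alone (0.0596) and on leaving out mouse 2 (0.112) or 3 (0.132) of the KI sham hearts or any 1 KI TAC heart (0.0504 to 0.103, all adjusted p). Fos, an immediate-early gene with a cAMP response element, rose by 4.08 ± 0.81 (SE, adjusted p = 0.00317), from 0.485 to 2.40 RPKM in KI sham to 200.2, 22.8 and 7.38 RPKM in the KI TAC hearts of mice 5, 6 and 7. Akap12, an anchoring protein of the beta-adrenergic receptor, rose by 1.89 ± 0.39 (adjusted p = 0.00369), to 47.1, 24.1 and 11.0 RPKM in the same mice. Mouse 5 was the highest KI TAC heart for both genes, and without it the log2 differences were 2.80 for Fos and 1.40 for Akap12, both still past the test. Mouse 7 was the lowest, and without it they were 5.10 for Fos and 2.40 for Akap12. Neutrophil marker sums of mice 5, 6 and 7 had the same order (20.3, 11.3 and 4.18 RPKM), and a link was not tested.

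Phosphodiesterases degrade cAMP. Of 11 tested, 5 fell, 1 rose and 5 did not pass in KI hearts, where 14.7% of all genes tested fell and 8.57% rose. In WT hearts 1 fell, 1 rose and 9 did not pass, where 4.60% of all genes fell and 6.96% rose. The difference between these counts was not tested. Pde4a fell by 2.32 ± 0.26 on the log2 scale (SE, adjusted p = 9.50e-05), from 28.0, 16.6 and 22.2 RPKM in KI sham to 3.49, 2.71 and 4.76 RPKM in KI TAC hearts, below all other hearts. It was at 25.3, 20.8 and 24.2 RPKM in WT sham and 18.1, 9.82 and 19.3 RPKM in WT TAC hearts (difference -0.60 ± 0.26, adjusted p = 0.149). Pde7a fell in KI hearts by 0.99 ± 0.27 (adjusted p = 0.0186), a call lost when mouse 3 of the KI sham hearts (0.0899) or mouse 5 (0.0615) or 7 (0.0522) of the KI TAC hearts was left out, and the remaining 3, named after their values were seen, were Pde4d (-0.65), Pde8b (-0.52) and Pde2a (-0.44). Among the other falls, Ppargc1a, a CREB-responsive coactivator of mitochondrial genes, fell by 1.49 ± 0.32 (adjusted p = 0.00518), Akap6, which anchors PKA at the nuclear envelope, by 1.03 ± 0.23 (adjusted p = 0.00676) and Cacna1c, the pore of the L-type calcium channel, by 0.78 ± 0.21 (adjusted p = 0.0181). The Cacna1c call was lost after median-ratio scaling (adjusted p = 0.0597) and without KI sham mouse 1 (0.0584) or 3 (0.0892). The count of 16 became 9 and 7 when KI sham mouse 1 or 3 was left out, and 8 and 10 when mouse 5 or 6 of the KI TAC hearts was.

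**Figure D4:**
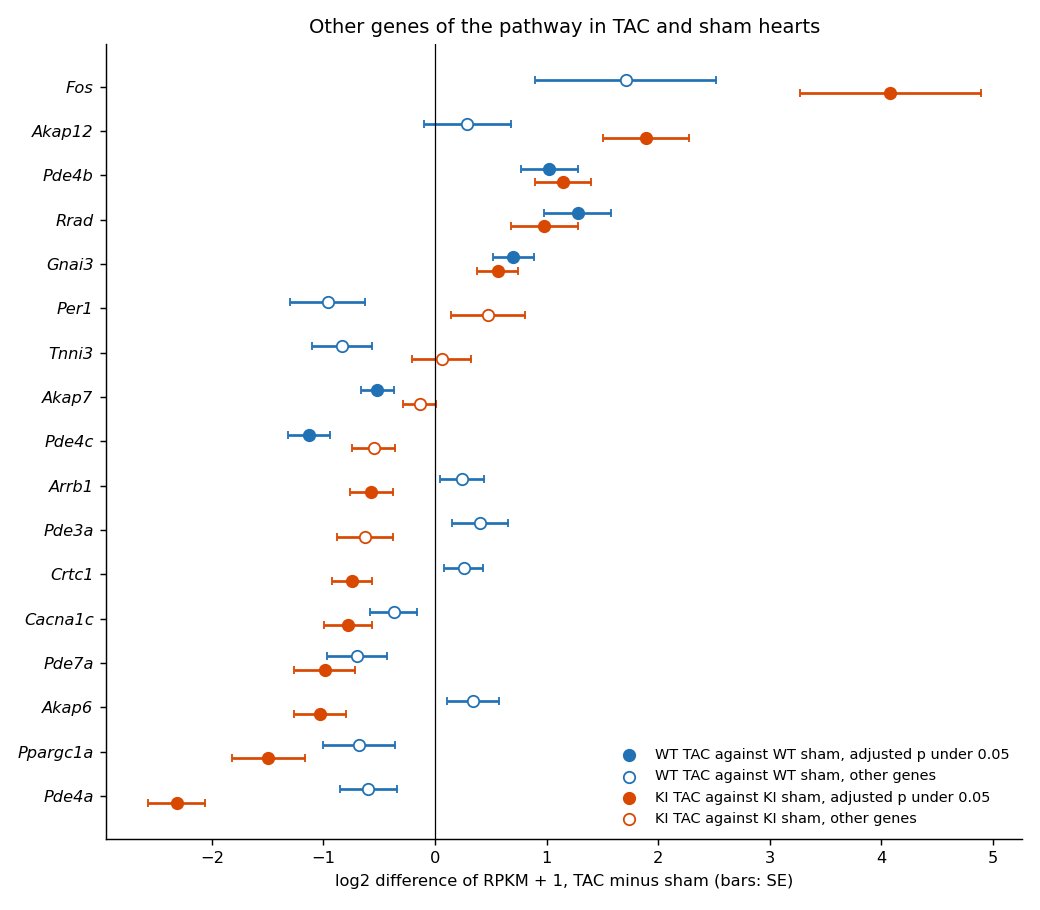
TAC minus sham difference of log2(RPKM + 1) (x axis) in WT and KI hearts for 17 named genes of the pathway outside the 9, with SE bars from limma; filled points passed an adjusted p of 0.05. Pde4a lies furthest to the left and Fos furthest to the right in KI hearts, while Rrad, Pde4b and Gnai3 passed in both genotypes.

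Between KI TAC and WT TAC hearts 3 of the 54 genes were higher and 8 lower (20.4%), beside 11.0% of all genes, 2.92% as higher and 8.13% as lower. Lower in KI TAC were Pde4a (-1.82 ± 0.26 on the log2 scale, SE, adjusted p = 0.00443), Akap6 (-1.35 ± 0.23, 0.00645), Crtc1, a coactivator of CREB (-0.98 ± 0.18, 0.00771), Pde3a, the phosphodiesterase inhibited by milrinone (-0.89 ± 0.25, 0.0381), and Arrb1, which encodes the receptor-binding beta-arrestin 1 (-0.87 ± 0.20, 0.0175). Higher in KI TAC were Akap12 (1.75 ± 0.39, 0.0169), the clock gene Per1 (1.41 ± 0.33, 0.0209) and Tnni3, cardiac troponin I and a PKA substrate (0.95 ± 0.27, 0.0384, all adjusted p). Pde4a and Akap6 passed in every alternative run at the threshold of 0.05. Pde3a lost its call in 9 alternatives: median-ratio scaling (adjusted p = 0.0923), quantile normalization (0.0746), the fit of the TAC hearts alone (0.0605) and the omission of any 1 heart (0.0578 to 0.0958). Tnni3 lost its call in 6 alternatives (adjusted p 0.0567 to 0.138), Per1 in 5 (0.0502 to 0.105), Arrb1 in 4 (0.0524 to 0.0842), Akap12 in 3 (0.0695 to 0.093) and Crtc1 in 1 (0.0509). All 6 genes lost their call without WT TAC mouse 7, and all but Crtc1 without KI TAC mouse 6. The Tnni3 difference was 0.58 under quantile normalization, beside the 0.95 given above. For the tested genes of this list the difference between the TAC effects of the genotypes passed in 0 of 54 by limma and by limma-voom, with 11 and 13 of them at an unadjusted p under 0.05, and in 0 of 11240 genes by limma, with 1668 at an unadjusted p under 0.05. In KI sham against WT sham hearts 0 of 54 passed by either tool, and 0 had an unadjusted p under 0.05, beside the 2 and 37 of 11240 genes given above for this comparison. The count of 11 was 4 in the fit of the TAC hearts alone, 2 when mouse 7 of the WT TAC hearts was left out and 7 when its mouse 10 was, and 7 and 3 when mouse 5 or 6 of the KI TAC hearts was.

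The markers of other cell types bear on how these levels are read. Endothelial (at most 374 RPKM), mural (168 to 263 RPKM) and cardiomyocyte marker sums overlapped between the groups compared, apart from mural markers being lower without overlap in WT TAC (190.2 to 216) than in WT sham hearts (217 to 235). Actc1 alone gave 8113 to 19140 RPKM, so overlap of the cardiomyocyte sum says little about its other markers. Of the 5 cardiomyocyte markers, Myh6 fell in WT TAC against WT sham (by 1.15 on the log2 scale), Tnni3k fell in KI TAC against KI sham (by 0.68) and Myl2 was higher after TAC in KI than in WT hearts (0.86). The mural marker Abcc9 fell with TAC in WT (by 0.83, adjusted p = 0.0471) and in KI hearts (by 0.89, adjusted p = 0.021), the fibroblast marker Lum fell in KI hearts (by 1.14, adjusted p = 0.0476), and so did the leukocyte marker Csf1r (by 0.53, adjusted p = 0.0419). Of the 3 neutrophil markers tested, 2 rose with TAC in WT and 3 in KI hearts. Neutrophil markers (3 of 4 with a row) summed to at most 1.265 RPKM in sham hearts, 3.69 to 9.87 in WT TAC and 4.18 to 20.3 RPKM in KI TAC hearts. Red cell markers summed to 132 to 158 RPKM in WT sham and 67.2 to 103 RPKM in WT TAC hearts, lower after TAC without overlap, and to 121 to 219 RPKM in KI sham and 87.3 to 227 RPKM in KI TAC hearts, with overlap. The lowest adjusted p of the 4 in a TAC against sham comparison was 0.0956, for Hbb-bs in WT hearts. The brown fat marker with a row was at 8.70 to 22.7 RPKM, with overlap of the groups, and the atrial and skeletal muscle markers were not analysed here. The part of these cells in the differences above was not tested.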

How the data were processed

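Poly(A) RNA of 12 mouse hearts was sequenced with a kit that keeps the strand, in single-read mode. Per the labels and the study's methods, the authors trimmed reads with Trimmomatic 0.39, mapped them to GRCm38 with HISAT2 2.2.1, counted them per gene with HTSeq 0.6.1, named limma 3.32.10 and edgeR 3.18.1 (R 4.1.1) for their tests, and deposited RPKM. The step from counts to RPKM, the filter on genes and the strand setting of the counting are not given in the sources used here. The deposited RPKM times the exon length of GENCODE M21 summed to 997702 to 1002226 per heart, close to the total that unscaled RPKM gives. Reads per gene were recovered from the RPKM: 94.4% to 97.5% of low values were whole multiples of 1 read (within 0.05).

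log2(RPKM + 1) was fitted in limma 3.58.1 (R 4.3.3; lmFit, eBayes with trend) over the 11240 genes that reached 1 RPKM in 3 or more hearts, with the 4 groups together and no covariate. P-values were adjusted by Benjamini-Hochberg over all genes tested, with a threshold of 0.05, two-sided. Fold changes on this scale understate those of low genes. The script was tested on simulated data. Each mouse is 1 sample. The members and gene lists were chosen with earlier results of these data known, and the tests of TAC against sham use hearts from the comparison that chose the members. Named genes were the 9 members, the 5 largest rises and falls of the pathway list per comparison among those that passed, and the 3 genes nearest in pattern, passing over predicted genes and genes under 1 RPKM in most hearts. The rule also named an item that is not reported here. Where a sentence gives a call beside its log2 difference, its adjusted p is from this fit. Alternatives were a pseudocount of 0.1, no filter, median-ratio scaling, quantile normalization, limma-voom on the recovered reads, a fit of the groups compared alone, each heart left out, and a threshold of 0.10. Gene positions are those of GENCODE M21 on GRCm38.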

Additional observations from a re-analysis of the deposited data

Results flagged for a closer look

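The Adrb1 hearts lay on opposite sides of their sham hearts after TAC: all 3 WT TAC hearts were above all 3 WT sham hearts, and all 3 KI TAC hearts were below all 3 KI sham hearts. Neither TAC difference passed the test (limma adjusted p = 0.0608 in WT and 0.123 in KI). The difference between the TAC effects (KI minus WT) was -1.33 on the log2 scale, with a range of -1.58 to -1.09 over 17 alternative analyses. This difference was not tested, since the comparison it holds chose the gene. Groups of 3 hearts are too small for a check of single outlying samples.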

How the results depend on the processing

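Grk5 in WT and Adcy5 in KI hearts kept their calls in every alternative run. Those runs share the TAC hearts of the comparison that chose the members, so they are not independent of the choice. Members called in WT TAC against WT sham numbered 1 to 3 and in KI TAC against KI sham 1 to 3 when a heart was left out (3 and 3 with all hearts), and 3 and 3 with limma-voom on recovered reads. The counts for other pathway genes were 1 to 6, 7 to 15 and, for KI TAC against WT TAC, 2 to 12 with a heart left out. With a threshold of 0.10 the WT count was 9, and with only the TAC hearts fitted the KI TAC against WT TAC count was 4. Median-ratio scaling gave a member median of -0.80 for KI TAC against WT TAC and -0.78 for the difference between TAC effects, which ran from -1.11 to -0.81 with a heart left out. Causes were not tested.

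Signs turned for the values given here. Under median-ratio scaling these were Gnas in KI TAC against KI sham (0.15), Prkaca in KI TAC against WT TAC (0.008) and Prkaca between TAC effects (0.11). Under quantile normalization they were Adcy5 in WT TAC against WT sham (0.024), Gnas in KI TAC against KI sham (0.008) and Adcy5 in KI sham against WT sham (0.003). With a heart left out, ranges in WT TAC against WT sham were -0.14 to 0.10 (Adcy5) and -0.13 to 0.31 (Adcy9), and in KI TAC against KI sham -0.14 to 0.20 (Grk5) and -0.14 to 0.10 (Gnas). In KI sham against WT sham they were -0.19 to 0.21 (Adrb1), -0.32 to 0.02 (Grk5), -0.23 to 0.01 (Gnas), -0.12 to 0.10 (Adcy5), -0.11 to 0.43 (Adcy7), -0.44 to 0.016 (Adcy9), -0.16 to 0.034 (Prkaca) and -0.12 to 0.25 (Prkar1a). Gnas in KI TAC against WT TAC ran from -0.032 to 0.16, and Prkaca between TAC effects from -0.22 to 0.036.

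WT sham and KI sham mice share the numbers 1 to 3. Deviations of same-numbered hearts correlated at -0.23, -0.30 and 0.44, so the numbers were not taken as pairs; with the mouse number as a replicate block, 0 of 9 members and 0 of 54 pathway genes passed, as without it.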
